A study of Mus musculus with 45 samples.

Results

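The 10 genes described here encode chemokines, cytokines and one cytokine receptor: the CC chemokines Ccl2, Ccl5 and Ccl8, the CXC chemokines Cxcl1, Cxcl9, Cxcl10 and Cxcl16, the cytokines Il1b and Tnf, and Il1r1, the receptor through which interleukin 1 signals. They were taken by gene symbol from the 22904 genes of the deposited matrices; each symbol matched a single row, and all 10 passed the filter on low counts. RNA came from pancreatic islets of Langerhans, the hormone-making clusters of the pancreas, of wild-type mice given no treatment other than diet. Females and males of C57BL/6J, a standard inbred strain, CAST/EiJ, a strain derived from wild mice, and NZO/HlLtJ, which becomes obese and serves as a model of type 2 diabetes, were fed 1 of 2 diets, a control diet (10% fat) or one high in fat and sugar (44% fat). Fiber was part of both diets, feeding began at 6 weeks of age, and islets were collected at 16 weeks. Strain, sex and diet define 12 groups of the 45 libraries; the 2 groups of NZO/HlLtJ males and the CAST/EiJ males fed 10% fat have 3 libraries each, and the remaining groups 4. No label ties a library to a mouse of its own, so the p-values measure only the spread between these libraries, which may be partly technical. The labels also do not say how many mice or islets went into a library.

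Chemokines are small secreted proteins that guide white blood cells along a gradient through receptors of the G protein-coupled family. Ccl2 draws monocytes through Ccr2, Ccl5 draws T cells and monocytes, and Ccl8 is a relative of Ccl2. Cxcl9 and Cxcl10 are induced by interferons and draw activated T cells and NK cells through Cxcr3, Cxcl1 draws neutrophils through Cxcr2, and Cxcl16 is made as a membrane-bound protein that binds Cxcr6. Interleukin 1 beta and tumour necrosis factor are cytokines released mainly by activated macrophages. In islets, resident macrophages are a known source of both, and beta cells are known for a high level of the interleukin 1 receptor Il1r1.

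The promoters shown are those of Cxcl9 and Cxcl10, the interferon-induced pair, of Ccl8 and of the neutrophil chemokine Cxcl1. They were chosen because the first 3 passed the test for diet in NZO/HlLtJ and Cxcl1 did not. The sequences are the 250 bases before the annotated start, 5′ to 3′ on the strand of the gene, from RefSeq on GRCm38.p6. They lie at chr5:92348890-92349139 on the minus strand (Cxcl10), chr5:92328080-92328329 on the minus strand (Cxcl9), chr5:90890995-90891244 on the plus strand (Cxcl1) and chr11:82114935-82115184 on the plus strand (Ccl8). Capitals mark motif matches, which in Cxcl10 are an ISRE core and 2 NF-kB matches, in Cxcl1 an NF-kB match, and in Ccl8 and Cxcl9 the letters TATAAA.
Cxcl10: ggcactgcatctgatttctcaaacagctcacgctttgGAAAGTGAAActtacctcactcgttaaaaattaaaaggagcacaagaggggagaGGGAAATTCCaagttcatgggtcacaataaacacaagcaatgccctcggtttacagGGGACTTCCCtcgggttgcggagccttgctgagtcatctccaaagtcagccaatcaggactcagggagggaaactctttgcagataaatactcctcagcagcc
Cxcl9: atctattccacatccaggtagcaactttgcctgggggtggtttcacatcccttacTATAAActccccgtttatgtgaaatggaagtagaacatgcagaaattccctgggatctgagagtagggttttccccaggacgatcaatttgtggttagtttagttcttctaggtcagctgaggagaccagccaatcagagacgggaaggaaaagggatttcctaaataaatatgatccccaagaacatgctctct
Cxcl1: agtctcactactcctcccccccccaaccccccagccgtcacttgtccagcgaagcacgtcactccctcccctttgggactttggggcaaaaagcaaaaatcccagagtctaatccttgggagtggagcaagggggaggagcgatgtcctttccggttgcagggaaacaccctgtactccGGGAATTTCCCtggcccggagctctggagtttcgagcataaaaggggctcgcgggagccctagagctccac
Ccl8: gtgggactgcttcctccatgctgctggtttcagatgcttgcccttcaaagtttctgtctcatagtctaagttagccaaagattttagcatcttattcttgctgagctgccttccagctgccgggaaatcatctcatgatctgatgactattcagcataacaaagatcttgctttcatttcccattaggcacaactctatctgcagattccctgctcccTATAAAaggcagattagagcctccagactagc
Motifs were searched from 250 bases before to 50 after the start, in the 8 RefSeq promoters that matched 7 of the 10 genes (Ccl2, Ccl5 and Cxcl16 had no match). The ISRE core GAAANNGAAA, bound by interferon-activated factors, was in 1 of the 7 genes, Cxcl10, at bases -213 to -204 from the start, and in 3.44% of 32851 RefSeq promoters of the same length. The NF-kB consensus was searched as GGG, A or G, any base, A or T, C or T, C or T, then CC. It was in 3 of the 7, which were Cxcl10, Cxcl1 and Il1r1, and in 4.51% of all promoters. Il1r1 had an additional promoter, which held no match. It matched Cxcl10 at -159 to -150 and at -103 to -94, and Cxcl1 on both strands in overlapping matches between -71 and -61. The GAS letters TTCNNNGAA were in 0 of the 7 and in 8.3% of all promoters. These 3 motifs were searched on both strands, and TATAAA on the strand of the gene only, where 4 of the 7 and 8.32% of all promoters held it. In Cxcl9 TATAAA lay at -195 to -190, and in Ccl8 at -32 to -27. A match describes letters in the window and not a site in use.

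Positions are on GRCm38, as the deposited annotation gives them. Cxcl9 (chr5:92321347-92328079) and Cxcl10 (chr5:92346638-92348889) are 18.6 kb apart on the minus strand. Ccl2 (chr11:82035571-82037453) and Ccl8 (chr11:82115185-82116799) are 77.7 kb apart on the plus strand. Cxcl1 (chr5:90891241-90893115) and Ccl5 (chr11:83525778-83530518) lie on the same chromosomes as these pairs, while Cxcl16 (chr11:70453983-70459984) lies farther off on chromosome 11. Il1b is at chr2:129364570-129371139, Tnf at chr17:35199381-35202007 and Il1r1 at chr1:40225080-40317257.

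Library totals ranged from 57.2 to 110 M estimated counts, so that 1 count stood for 0.00886 to 0.0211 CPM (counts scaled to a common library total with TMM factors) and 3 counts for 0.0266 to 0.0634 CPM. Values below that are at the limit of detection, which concerns Ccl8 and Cxcl9 most: Ccl8 had no count in 19 of the 45 libraries and Cxcl9 in 6. In 5 libraries, transcripts of another strain were present. CAST/EiJ females on 44% fat, replicates 1, 2 and 4, had 8.91%, 3.51% and 3.6% of the C57BL/6J level over the marker genes. The same 3 libraries had 5.72%, 2.95% and 1.93% of the NZO/HlLtJ level over its marker genes. NZO/HlLtJ males on 44% fat, replicate 3, had 2.98% of the C57BL/6J level. Replicate 1 of that group, not counted among the 5, had 1.36%. C57BL/6J females on 44% fat, replicate 2, had 1.93% of the NZO/HlLtJ level. Results that rest on these 5 libraries are given with and without them where a call changed. The sources used here do not say whether counting allowed for strain variants, on which differences between strains depend. Sample codes begin with 76, 80 or 89, numbers whose meaning is not in the labels and whose series is partly confounded with diet within each sex of NZO/HlLtJ. In bulk islets, fewer cells of a type and less RNA per cell cannot be told apart.

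Il1r1 was by far the most abundant of the 10 transcripts, and Cxcl16 came next by median. Group means of Cxcl16 were 5.29 to 7.35 CPM in C57BL/6J and CAST/EiJ, and 4.95 CPM in NZO/HlLtJ females on 10% fat. Per kilobase of exon, the median level over the 45 libraries was 88.3 CPM per kb for Il1r1 (47.6 to 157), 2.21 for Cxcl16, 0.631 for Il1b and 0.515 for Cxcl1. The same scale gave 0.230 for Cxcl10, 0.214 for Ccl5, 0.187 for Ccl2, 0.157 for Tnf, 0.0498 for Ccl8 and 0.0409 for Cxcl9. In NZO/HlLtJ males on 44% fat the order was different, with mean levels of 13.4 ± 6.29 CPM per kb for Ccl8 and 13.2 ± 8.23 for Cxcl9 (SD, n = 3). In those libraries Cxcl16 stood at 10.8 ± 4.03, Cxcl10 at 7.54 ± 0.281, Ccl5 at 4.45 ± 2.94 and Ccl2 at 2.79 ± 0.759 CPM per kb (SD, n = 3). Ccl8 and Cxcl9, the lowest 2 of the 10 by median, thus ranked just below Il1r1 (72.5 ± 21.8) in this group, although Ccl8, Cxcl9 and Cxcl16 did not differ beyond their spread there.

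Of the 12 groups, NZO/HlLtJ males on 44% fat had the highest mean for 8 of the 10 genes. The exceptions were Cxcl1 and Il1r1, whose highest means were in NZO/HlLtJ males on 10% fat, at 3.37 ± 1.83 and 840 ± 127 CPM (SD, n = 3). Across libraries Cxcl9 went from 0 to 68.5 CPM and Ccl8 from 0 to 10.5 CPM. Relative to its level Il1r1 varied least, from 303 to 1002 CPM.

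**Figure D1:**
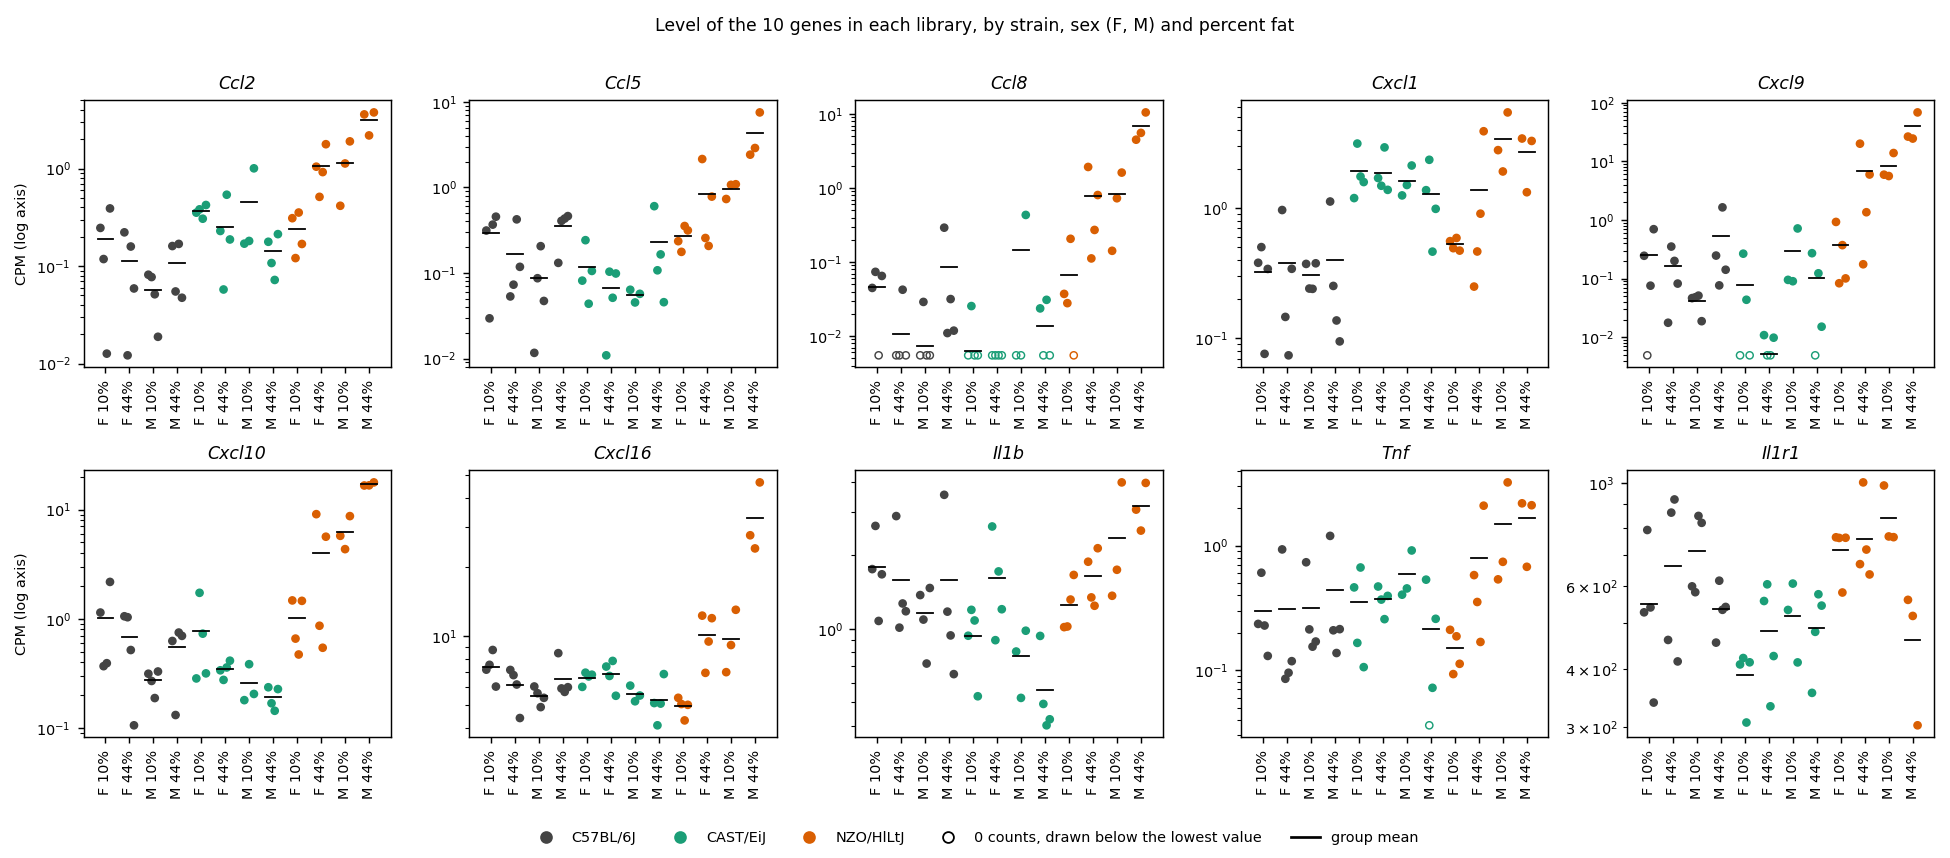
Level of each of the 10 genes in every library in CPM on a log axis, with the libraries (points) arranged by strain, sex and percent fat and bars at the group means; open points below the lowest value are libraries with 0 counts. NZO/HlLtJ males on 44% fat hold the highest means for 8 genes, with Cxcl9 at 24.5 to 68.5 CPM, while Il1r1 lies between 303 and 1002 CPM throughout.

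The main question of the design is whether diet acted alike in the 3 strains. In NZO/HlLtJ, 6 of the 10 genes were higher on 44% than on 10% fat as the mean of the sexes: Ccl8, Cxcl9, Ccl5, Ccl2, Cxcl10 and Cxcl16. Over all 20306 genes tested, 18.5% were called higher and 17.3% lower in this comparison, and none of the 10 was called lower. The median log2 fold change was 1.56 over the 10 genes and -0.02 over all genes. Adjusted p-values here and below are from the quasi-likelihood F test of edgeR with Benjamini-Hochberg adjustment over all genes tested, and a gene was called at an adjusted p under 0.05. All 6 calls held in each of 14 fits that left out a library and under each of 10 other settings, including the number series as a factor and the fit without the 5 libraries with transcripts of another strain.

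Of the Cxcr3 ligands among the 10 genes, Cxcl9 had a larger fold change than Cxcl10, an order that was not tested. Cxcl9 in NZO/HlLtJ females was at 0.929, 0.0836, 0.373 and 0.101 CPM on 10% fat and at 20.1, 0.176, 1.36 and 5.98 CPM on 44% fat, in the order of replicates 1 to 4. Males had 5.94, 5.63 and 13.9 CPM on 10% fat and 26.5, 24.5 and 68.5 CPM on 44% fat. The male diets did not overlap, whereas replicate 2 of the females on 44% fat lay within the range of the control diet. The log2 fold change as the mean of the sexes was 3.24 (SE 0.69, adjusted p = 0.000334). In females alone Cxcl9 rose by 4.25 on the log2 scale (SE 0.97, adjusted p = 0.00214), and without replicate 1 on 44% fat by 2.80 (adjusted p = 0.0258). In males the difference of 2.23 (SE 0.96) did not pass the test in edgeR (adjusted p = 0.0714), although limma on the deposited log2 values called it (adjusted p = 0.00751).

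Cxcl10 followed the same libraries. It stood at 1.47, 0.659, 0.472 and 1.46 CPM in NZO/HlLtJ females on 10% fat and at 9.07, 0.864, 0.544 and 5.64 CPM on 44% fat. Males had 5.74, 4.34 and 8.70 CPM on 10% fat and 16.6, 16.6 and 17.7 CPM on 44% fat. Replicates 1 and 4 of the females on 44% fat were high for both Cxcl9 and Cxcl10, and replicates 2 and 3 were not high for Cxcl10. The log2 fold change of Cxcl10 was 1.72 (SE 0.46, adjusted p = 0.00371) over both sexes and 2.01 (SE 0.63, adjusted p = 0.0239) in females. The female call was lost without replicate 1 on 44% fat (1.23, adjusted p = 0.166), and also without replicate 4 on 44% fat or replicate 2 or 3 on 10% fat (adjusted p = 0.0657, 0.0759 and 0.086). Library totals, limma on the deposited log2 values and NZO/HlLtJ alone did not give it either (adjusted p = 0.0809, 0.0893 and 0.0898). In males the difference of 1.44 (SE 0.68) did not pass the test in edgeR (adjusted p = 0.105), and limma called it (adjusted p = 0.0142). Art3 overlaps Cxcl10, and strand use in counting is not given, so reads of the 2 genes cannot be told apart where they overlap; Art3 itself was at 3.68 CPM on 10% and 4.60 CPM on 44% fat in NZO/HlLtJ (log2 fold change 0.31, adjusted p = 0.112).

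The monocyte and T cell chemokines of the CC family also rose. Ccl8 in NZO/HlLtJ females was at 0.0371, 0.0279, 0.206 and 0 CPM on 10% fat and at 1.93, 0.112, 0.272 and 0.805 CPM on 44% fat. Males had 0.142, 0.729 and 1.62 CPM on 10% fat and 4.51, 5.57 and 10.5 CPM on 44% fat. Male diets did not overlap, and in females only replicate 2 on 44% fat lay below the highest control value. Ccl8 rose by 3.27 on the log2 scale over both sexes (SE 0.54, adjusted p = 5.53e-06), by 3.48 in females (SE 0.81, adjusted p = 0.00197) and by 3.06 in males (SE 0.71, adjusted p = 0.000844). DESeq2 did not call it within either sex (adjusted p = 0.0915 in females and 0.184 in males), and in females it was not called with the NZO/HlLtJ libraries alone (adjusted p = 0.0577).

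Ccl2 in NZO/HlLtJ females was at 0.310, 0.121, 0.354 and 0.168 CPM on 10% fat and at 1.04, 0.512, 0.919 and 1.77 CPM on 44% fat. Its levels in males were 0.415, 1.13 and 1.90 CPM on 10% fat and 3.59, 2.18 and 3.76 CPM on 44% fat. The diets did not overlap in either sex. Its log2 fold change was 1.82 over both sexes (SE 0.39, adjusted p = 0.000386), 2.17 in females (SE 0.56, adjusted p = 0.00575) and 1.48 in males (SE 0.56, adjusted p = 0.0383). The male call was lost without replicate 1 or 2 on 10% fat (adjusted p = 0.212 and 0.107) or replicate 1 or 3 on 44% fat (adjusted p = 0.0813 and 0.129). It was also lost without the 5 libraries with transcripts of another strain (1.33, adjusted p = 0.128), in DESeq2, with library totals, with the stricter filter and without bias-adjusted deviances (adjusted p = 0.0959, 0.0599, 0.0747 and 0.12).

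Ccl5, a T cell chemokine, was at 0.235, 0.176, 0.354 and 0.314 CPM in NZO/HlLtJ females on 10% fat and at 2.14, 0.256, 0.207 and 0.780 CPM on 44% fat. In males it was at 0.732, 1.07 and 1.09 CPM on 10% fat and at 2.41, 2.88 and 7.52 CPM on 44% fat. The male diets did not overlap, and the female diets did, with replicates 2 and 3 on 44% fat at control levels. Ccl5 rose by 1.91 on the log2 scale over both sexes (SE 0.44, adjusted p = 0.000759) and by 2.15 in males (SE 0.63, adjusted p = 0.00835). The male call was lost without replicate 3 on 44% fat, one of the libraries with transcripts of another strain (1.46, adjusted p = 0.126), and without replicate 1 on 10% fat (1.96, adjusted p = 0.0518). In females the difference of 1.68 (SE 0.61) did not pass the test (adjusted p = 0.0534), and it did without replicate 2 (adjusted p = 0.034) or replicate 3 (adjusted p = 0.0281) on 44% fat.

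Cxcl16, the membrane-bound chemokine, gave the most precise difference of the 10 genes. It was at 5.40, 5.07, 4.30 and 5.03 CPM in NZO/HlLtJ females on 10% fat and at 12.3, 6.93, 9.49 and 11.98 CPM on 44% fat. In males it was at 6.98, 9.15 and 13.0 CPM on 10% fat and at 27.5, 24.1 and 46.7 CPM on 44% fat. The diets did not overlap in either sex. The log2 fold change was 1.40 over both sexes (SE 0.15, adjusted p = 1.63e-08), 1.04 in females (SE 0.19, adjusted p = 0.000242) and 1.75 in males (SE 0.22, adjusted p = 1.2e-06). The libraries of number series 76 alone gave the same order for Cxcl16. They were at 12.3 and 6.93 against 5.40 and 5.07 CPM in females. In males, with a single library on each diet, they were at 27.5 against 6.98 CPM. In the females of this series the diets overlapped for Cxcl9 and Cxcl10, and did not for Ccl2, Ccl5 and Ccl8. The order within the series was not tested. Zmynd15 overlaps Cxcl16 and rose as well, from 0.922 to 2.43 CPM (log2 fold change 1.30, SE 0.19, adjusted p = 1.84e-06), and reads in the shared stretch cannot be told apart.

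Cxcl1, the neutrophil chemokine, did not pass the test for diet in NZO/HlLtJ. Females were at 0.557, 0.492, 0.590 and 0.472 CPM on 10% fat and at 0.250, 0.464, 0.906 and 3.89 CPM on 44% fat. Males were at 2.79, 1.91 and 5.43 CPM on 10% fat and at 3.42, 1.32 and 3.28 CPM on 44% fat. The diets overlapped in both sexes, and replicate 4 of the females on 44% fat stood above the other females. The log2 fold change over both sexes was 0.53 (SE 0.48, adjusted p = 0.417), and without that library it was -0.15. With all libraries it was 1.39 in females (SE 0.66, adjusted p = 0.142) and -0.33 in males (SE 0.69, adjusted p = 0.76).

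Of the 2 cytokines, Il1b did not pass the test in NZO/HlLtJ in either sex. It was at 1.02, 1.02, 1.32 and 1.66 CPM in females on 10% fat and at 1.88, 1.34, 1.24 and 2.14 CPM on 44% fat. In males it was at 1.37, 1.75 and 3.98 CPM on 10% fat and at 3.08, 2.53 and 3.96 CPM on 44% fat. The diets overlapped in both sexes, and the log2 fold change over both was 0.42 (SE 0.31, adjusted p = 0.307). Il1bos, an antisense gene that overlaps Il1b, was at 0.0811 CPM on 10% and 0.0445 CPM on 44% fat.

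Tnf in NZO/HlLtJ females was at 0.211, 0.0929, 0.187 and 0.112 CPM on 10% fat and at 0.579, 0.352, 0.168 and 2.09 CPM on 44% fat. In males it was at 0.535, 0.740 and 3.21 CPM on 10% fat and at 2.18, 0.675 and 2.11 CPM on 44% fat. Replicate 3 of the males on 10% fat held the highest Tnf level of all libraries. Over both sexes the log2 fold change was 1.29 (SE 0.59) and did not pass the test (adjusted p = 0.0858), and without that male library it did (1.90, adjusted p = 0.0138). In females Tnf was called at 2.42 (SE 0.86, adjusted p = 0.0471). The female call was lost without replicate 4 on 44% fat (1.31, adjusted p = 0.372), without any of the 4 control females, and in 7 of 10 other settings.

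Il1r1, the receptor, moved in the opposite direction in NZO/HlLtJ males. Males had 987, 768 and 765 CPM on 10% fat and 562, 519 and 303 CPM on 44% fat, without overlap. Females had 765, 762, 582 and 763 CPM on 10% fat and 670, 1002, 720 and 637 CPM on 44% fat, with overlap. Il1r1 fell by 0.87 on the log2 scale in males (SE 0.27, adjusted p = 0.014), and the difference was 0.08 in females (SE 0.24, adjusted p = 0.861). As the mean of the sexes the difference was -0.39 (SE 0.18) and did not pass the test (adjusted p = 0.0854), and it did without female replicate 2 on 44% fat (-0.48, adjusted p = 0.0406). The male call was lost without replicate 3 on 44% fat, a library with transcripts of another strain (-0.64, adjusted p = 0.142), or replicate 1 on 10% fat (-0.75, adjusted p = 0.0638). Markers of beta cells, the cells known for this receptor, fell in the same males: 7 of 7 were called lower, where 15.1% of all genes were. Their median log2 fold change was -1.19, and their summed level went from 118000 to 154800 CPM on 10% fat to 42320 to 92170 CPM on 44% fat. In NZO/HlLtJ females 0 of these 7 markers were called lower and 1 was called higher, where 9.37% of all genes were called higher. The part of the beta cell markers in the fall of Il1r1 was not tested.

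By sex, 6 of the 10 genes were called higher in NZO/HlLtJ females (Cxcl9, Ccl8, Tnf, Ccl2, Cxcl10 and Cxcl16), where 9.37% of all genes were called higher. In NZO/HlLtJ males 4 were called higher (Ccl8, Ccl5, Cxcl16 and Ccl2), where 17.0% of all genes were, and 1 was called lower (Il1r1), where 15.1% of all genes were. Without the male library with transcripts of another strain and the other 4 such libraries, 2 of the 10 were called in males, Ccl8 (2.59, adjusted p = 0.0207) and Cxcl16 (1.40, adjusted p = 0.000454). A gene called in a single sex is not shown to differ between the sexes. The test of that difference called 0 of the 10 in edgeR and in DESeq2 and 2 in limma on the deposited log2 values (Ccl8 and Cxcl16), against 10.0% of all genes in edgeR. In edgeR 2 genes had an unadjusted p under 0.05: Cxcl16, with a male minus female difference in log2 fold change of 0.71 (SE 0.29, adjusted p = 0.107), and Il1r1, with -0.94 (SE 0.36, adjusted p = 0.0883).

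**Figure D2:**
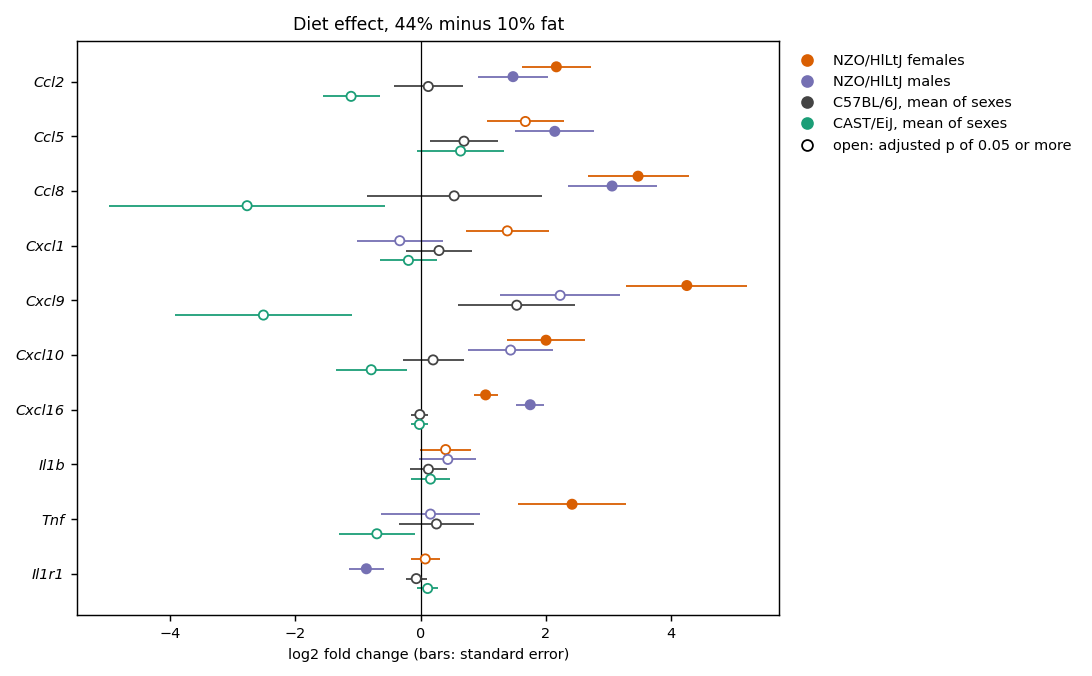
Diet effect (44% minus 10% fat) on each of the 10 genes as log2 fold change with its standard error, for NZO/HlLtJ females and males and for C57BL/6J and CAST/EiJ as means of the sexes; filled points passed an adjusted p under 0.05 in edgeR. In NZO/HlLtJ, 6 genes in females and 5 in males are filled, and all points of the other 2 strains are open.

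Markers of white blood cells moved with these chemokines in NZO/HlLtJ. Over all genes, 18.5% were called higher and 17.3% lower for diet in this strain as the mean of the sexes. All 12 of 12 macrophage markers were higher on 44% fat (median log2 fold change 1.93), and their summed level went from 62.1 to 71.6 CPM to 162 to 229 CPM in females, and from 88.7 to 271 CPM to 499.5 to 919 CPM in males. Of 13 T and NK cell markers, 12 were higher (median 2.16), and their sum went from 1.55 to 2.86 CPM to 2.02 to 19.1 CPM in females and from 4.75 to 8.85 CPM to 22.6 to 52.8 CPM in males. All 7 of 7 B and plasma cell markers were higher, with sums of 4.54 to 13.1 CPM and 50.1 to 200.4 CPM in males on the 2 diets. In females alone 0 of these 7 were called, with sums of 2.38 to 4.64 CPM and 4.84 to 25.1 CPM. These marker sums rest on few counts for T cells: Cd3d was at 0 in 18 and Ncr1 in 15 of the 45 libraries, while of the macrophage markers 1, Cd163, was at 0, in 1 library. None of 10 acinar cell markers was called (median 1.05), which does not show an equal acinar content. Their sums in males were 33420 to 47330 CPM on 10% fat and 62140 to 138500 CPM on 44% fat, without overlap. In females they were 13470 to 67400 and 29800 to 79100 CPM, with overlap. All 7 of 7 fibroblast and stellate cell markers were higher (median 1.36). Higher too were 6 of 7 dendritic cell markers (median 1.63), 4 of 5 tested markers of neutrophils and monocytes (2.54), 4 of 7 of duct cells (1.43) and 4 of 6 of endothelial cells (0.36).

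The T and NK cell sum in the 4 NZO/HlLtJ females on 44% fat, in the order of replicates, was 19.1, 2.02, 3.16 and 6.27 CPM, the same order of libraries as for Cxcl9. The macrophage sum in these libraries was 214, 162, 190 and 229 CPM and varied less. The part of each cell type in the chemokine differences was not tested.

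**Figure D3:**
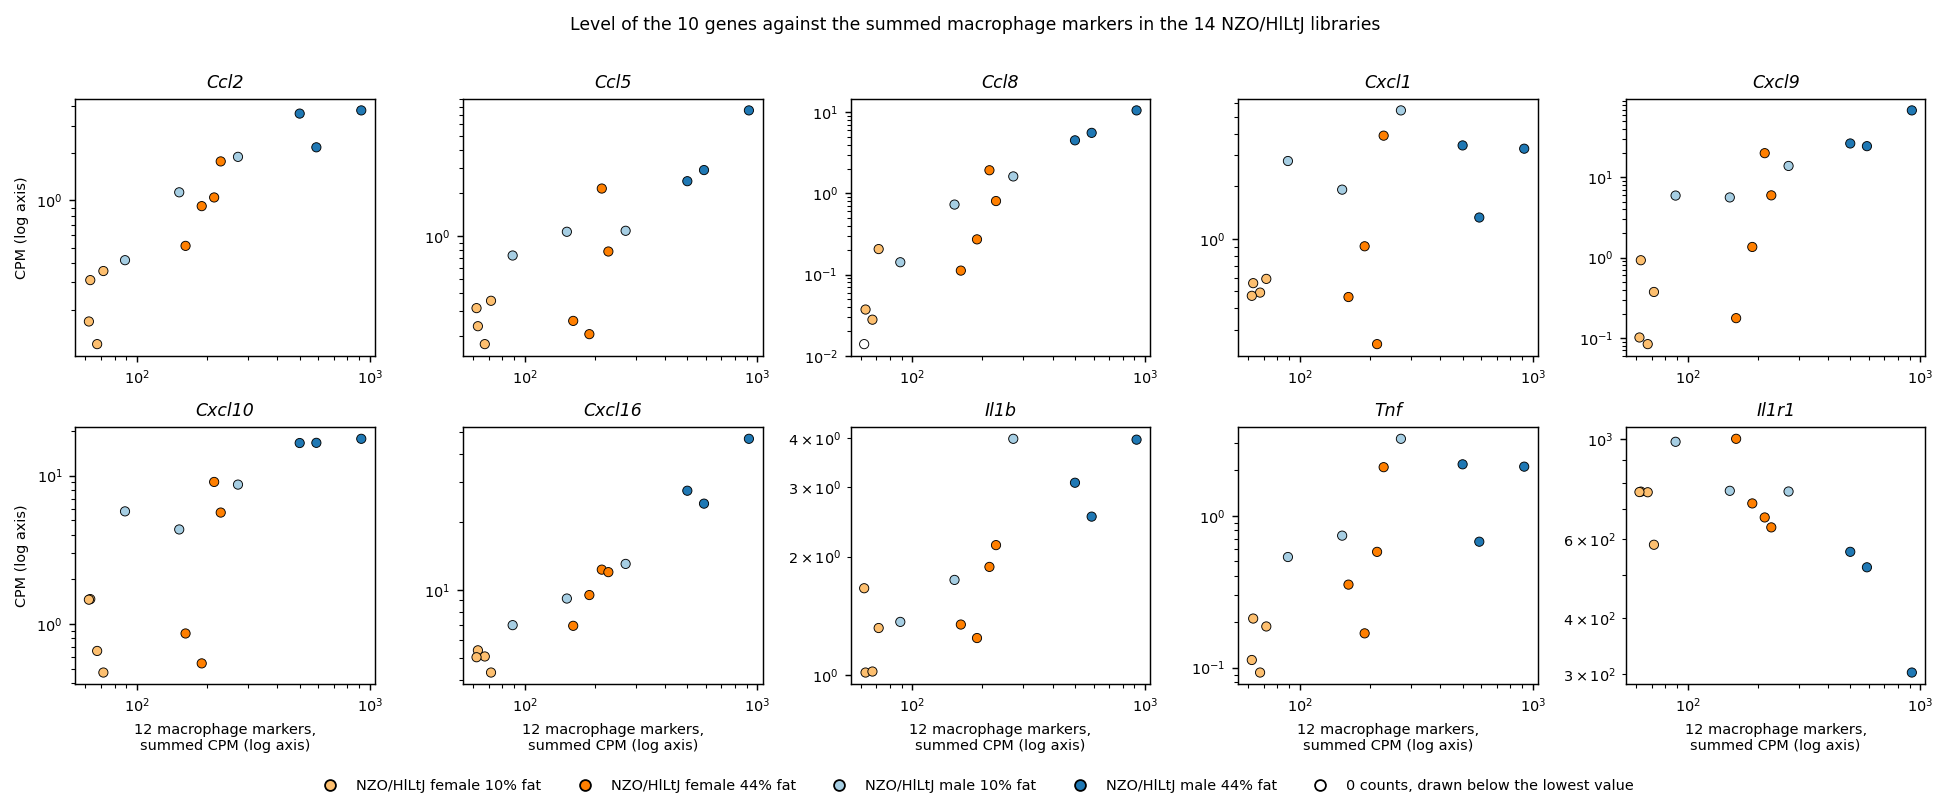
Level of each of the 10 genes against the summed level of 12 macrophage markers in the 14 NZO/HlLtJ libraries, both in CPM on log axes, coloured by sex and diet. Males on 44% fat lie at 499.5 to 919 CPM of macrophage markers and hold the 3 highest Cxcl16 levels (24.1 to 46.7 CPM), whereas Il1r1 is lowest there.

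In C57BL/6J no diet effect on the 10 genes was detected. None was called by edgeR, DESeq2 or limma, none had an unadjusted p under 0.05 in edgeR, and 0.0246% of all genes were called. Cxcl16, the gene with the most precise estimate, had a median of 6.04 CPM on 10% fat and 6.08 CPM on 44% fat over 8 libraries each (log2 fold change -0.01, SE 0.13). The largest value was that of Cxcl9, at 1.54 (SE 0.94, adjusted p = 1), whose median went from 0.0498 to 0.172 CPM.

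In CAST/EiJ none of the 10 genes was called for diet by edgeR, DESeq2 or limma either, and 0.0443% of all genes were. Ccl2 alone had an unadjusted p under 0.05, with a lower level on 44% fat (-1.11, SE 0.46, unadjusted p = 0.0195, adjusted p = 0.609). Its median was 0.353 CPM on 10% fat and 0.182 CPM on 44% fat. Cxcl16 again stayed near one level, with medians of 6.10 and 6.11 CPM (log2 fold change -0.02, SE 0.14).

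Whether the diet effect differed between strains was tested directly. Against C57BL/6J, the NZO/HlLtJ diet effect was larger for 1 of the 10 genes, Cxcl16, by 1.41 on the log2 scale (SE 0.20, adjusted p = 2.31e-05), where 9.67% of all genes were called higher. That call held in 30 of 30 fits that left out a library and in 10 of 10 other settings. Ccl2 (1.70, SE 0.71, adjusted p = 0.0885) and Cxcl10 (1.52, SE 0.67, adjusted p = 0.108) did not pass, and limma on the deposited log2 values called 6 of the 10. The differences for Ccl8 (2.73, SE 1.83) and Cxcl9 (1.71, SE 1.27) had wide errors.

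Against CAST/EiJ, the NZO/HlLtJ diet effect was larger for 4 of the 10 genes, where 13.0% of all genes were called higher. The differences were 2.93 for Ccl2 (SE 0.60, adjusted p = 0.000584), 5.75 for Cxcl9 (SE 1.5, adjusted p = 0.00481), 2.51 for Cxcl10 (SE 0.73, adjusted p = 0.0106) and 1.41 for Cxcl16 (SE 0.20, adjusted p = 1.56e-05). Without the 5 libraries with transcripts of another strain, Cxcl9 (6.55, adjusted p = 0.074) and Cxcl10 (2.46, adjusted p = 0.0849) no longer passed. Cxcl9 was also lost without CAST/EiJ female 10% fat replicate 2 (4.70, adjusted p = 0.181). The 2 strain tests share the NZO/HlLtJ libraries.

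Strain differences were present on the control diet. On 10% fat, 6 of the 10 genes were higher in NZO/HlLtJ than in C57BL/6J as the mean of the sexes, where 22.8% of all genes were. Cxcl9 was higher by 4.12 on the log2 scale (SE 0.85, adjusted p = 0.000144), Ccl8 by 3.52 (SE 0.93, adjusted p = 0.00167) and Ccl2 by 2.32 (SE 0.49, adjusted p = 0.000201). Cxcl10 was higher by 2.23, Cxcl1 by 2.07 and Ccl5 by 1.74 (adjusted p = 3e-04, 0.00124 and 0.00618). Cxcl16, Il1b, Tnf and Il1r1 did not pass. The Ccl8 call rested on NZO/HlLtJ female replicate 3, without which it was lost (2.70, adjusted p = 0.079). On this diet 2 of 12 macrophage markers and 6 of 13 T and NK cell markers were higher in NZO/HlLtJ than in C57BL/6J. In females the macrophage sum was lower in NZO/HlLtJ, at 62.1 to 71.6 against 86.9 to 104.6 CPM. In males it was 88.7 to 271 against 72.7 to 110.6 CPM. The T and NK cell sums were 1.55 to 2.86 against 1.25 to 3.57 CPM in females and 4.75 to 8.85 against 1.28 to 1.70 CPM in males. The part of these markers in the strain differences was not tested.

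The libraries behind these means differed by sex within NZO/HlLtJ. In females on 10% fat the NZO/HlLtJ and C57BL/6J libraries overlapped for all 6 genes. Mean levels were 0.372 against 0.255 CPM for Cxcl9, 1.016 against 1.019 for Cxcl10 and 0.270 against 0.291 for Ccl5. For Ccl2, Cxcl1 and Ccl8 they were 0.238 against 0.192, 0.528 against 0.325 and 0.0678 against 0.0459 CPM. In males the Cxcl9 mean was 8.49 against 0.0413 CPM and that of Cxcl10 6.26 against 0.276 CPM. Strain was not tested within each sex. On 10% fat, Cxcl9 was at 5.63 to 13.9 CPM in the 3 males and at 0.0836 to 0.929 CPM in the 4 females, and in C57BL/6J it had a median of 0.0498 and a maximum of 0.698 CPM over 8 libraries. Cxcl10 was at 4.34 to 8.70 CPM in the NZO/HlLtJ males and 0.472 to 1.47 CPM in the females. Cxcl1 was at 1.91 to 5.43 CPM in the males and 0.472 to 0.590 CPM in the females. Among the 10 genes, NZO/HlLtJ males and females on 10% fat overlapped for Ccl8 and Il1b. For the rest every male lay above every female, for Il1r1 by a margin of 765.0 against 764.5 CPM. The share of all genes that separate these libraries in this way was not computed. The difference within this strain was not tested.

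On 44% fat, 8 of the 10 genes were higher in NZO/HlLtJ than in C57BL/6J, where 32.4% of all genes were, and the other 2, Il1b and Il1r1, did not pass. Ccl8 was higher by 6.25 on the log2 scale (SE 0.66, adjusted p = 1.63e-11), Cxcl9 by 5.82 (SE 0.74, adjusted p = 1.5e-08) and Ccl2 by 4.01 (SE 0.44, adjusted p = 4.3e-10). For Ccl2 the strains did not overlap: the NZO/HlLtJ libraries lay between 0.512 and 3.76 CPM and those of C57BL/6J between 0.0122 and 0.222 CPM. Cxcl10, Ccl5, Cxcl1 and Cxcl16 were higher by 3.76, 2.96, 2.30 and 1.53. Tnf was higher by 1.65 (SE 0.56, adjusted p = 0.00966). The Tnf call was lost without NZO/HlLtJ female replicate 4 (1.09, adjusted p = 0.0869) and without the 5 libraries with transcripts of another strain (1.42, adjusted p = 0.0563), and its value was 2.49 without C57BL/6J female replicate 1.

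**Figure D4:**
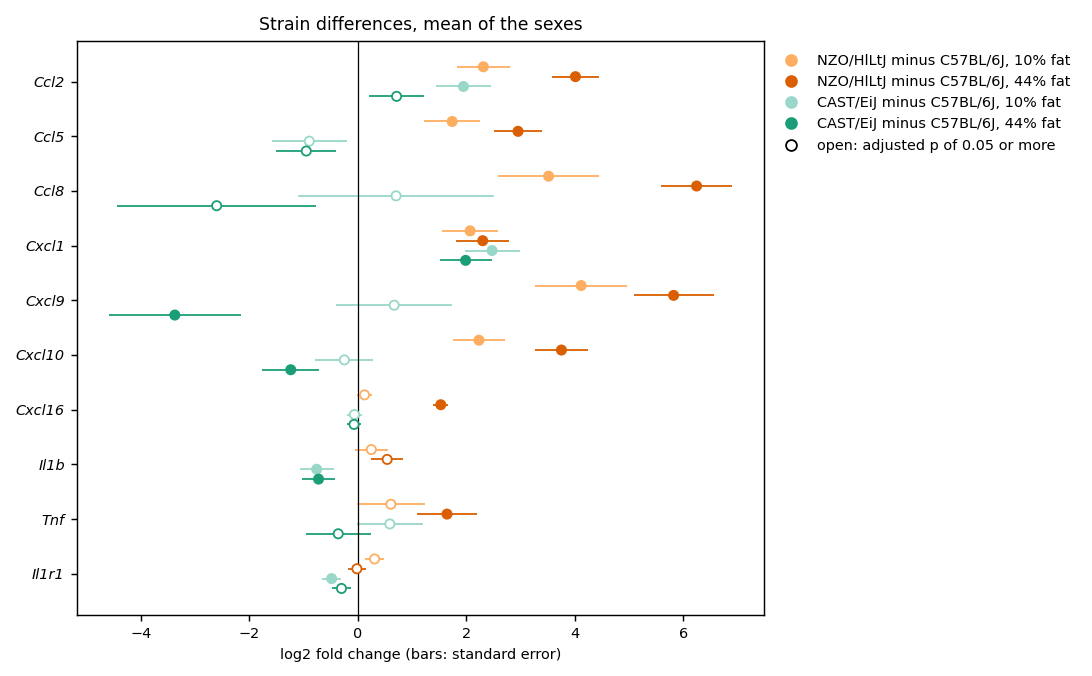
Differences of NZO/HlLtJ and CAST/EiJ from C57BL/6J on each diet for the 10 genes, as log2 fold change with its standard error and as means of the sexes; filled points passed an adjusted p under 0.05 in edgeR. NZO/HlLtJ stands above C57BL/6J for 6 genes on 10% fat and 8 on 44% fat, and CAST/EiJ stands above it for Cxcl1 on both diets.

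CAST/EiJ was likewise compared with C57BL/6J. On 10% fat Cxcl1 and Ccl2 were higher in CAST/EiJ, where 24.4% of all genes were, and Il1b and Il1r1 were lower, where 23.6% of all genes were. Cxcl1 was higher by 2.48 on the log2 scale (SE 0.51, adjusted p = 9.62e-05), and the strains did not overlap: CAST/EiJ libraries had 1.19 to 3.13 CPM and C57BL/6J libraries 0.0760 to 0.502 CPM. Ccl2 was higher by 1.95 (SE 0.50, adjusted p = 0.00132), and by 1.29 (adjusted p = 0.0425) without CAST/EiJ male replicate 3. Il1b was lower by a log2 value of -0.76 (SE 0.31, adjusted p = 0.0429), a call lost in 8 of the fits that left out a library and in 4 other settings. Il1r1 was lower by a log2 value of -0.48 (SE 0.17, adjusted p = 0.0207), lost without C57BL/6J female replicate 2 (adjusted p = 0.0777) or CAST/EiJ male replicate 3 (adjusted p = 0.0791).

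On 44% fat Cxcl1 remained higher in CAST/EiJ than in C57BL/6J, by 1.99 (SE 0.48, adjusted p = 0.000692), where 24.8% of all genes were higher. Cxcl9 (adjusted p = 0.0196), Cxcl10 (-1.24, SE 0.52, adjusted p = 0.0466) and Il1b (-0.72, SE 0.30, adjusted p = 0.0398) were lower, where 25.8% of all genes were. All 3 lower calls were lost without the 5 libraries with transcripts of another strain (adjusted p = 0.251, 0.291 and 0.152), but the differences stayed about as large: -1.06 for Cxcl10, -0.73 for Il1b, and for Cxcl9 a fitted value of -4.13 against -3.38, which depends on libraries with few counts. Cxcl9 was also lost without C57BL/6J male replicate 3 (-2.46, adjusted p = 0.115), and Il1b without C57BL/6J male replicate 1 (-0.35, adjusted p = 0.3) or female replicate 1 (-0.49, adjusted p = 0.173), without CAST/EiJ female replicate 2 or 4 or male replicate 2, 3 or 4 (adjusted p = 0.066 to 0.0868), and with library totals or limma (adjusted p = 0.0854 and 0.12). For Cxcl10 nearly every library mattered, with adjusted p-values of 0.0531 to 0.102 in the fits that lost the call.

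NZO/HlLtJ was also set against CAST/EiJ. On 10% fat 6 of the 10 genes were higher in NZO/HlLtJ, where 27.6% of all genes were: Cxcl9 (3.45), Ccl8 (2.81), Ccl5 (2.64), Cxcl10 (2.48), Il1b (1.01) and Il1r1 (0.79). The Ccl8 call was lost without NZO/HlLtJ female replicate 3 (1.99, adjusted p = 0.178), and the value was 6.13 without CAST/EiJ male replicate 3. Il1b was lost without NZO/HlLtJ male replicate 3 (0.71, adjusted p = 0.0666). On 44% fat 8 of the 10 were higher, where 36.2% of all genes were, and Cxcl1 and Il1r1 did not pass. Cxcl10 was higher by 4.99 on the log2 scale (SE 0.53, adjusted p = 2.54e-10), with no overlap between the NZO/HlLtJ libraries (0.544 to 17.7 CPM) and those of CAST/EiJ (0.144 to 0.414 CPM).

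In CAST/EiJ females on 44% fat, the group with the lowest mean of the 12 for both genes, Ccl8 and Cxcl9 were near the limit of detection. A fold against them is bounded by counting. Ccl8 had 0 counts in the 4 libraries together and 262 counts in the 4 NZO/HlLtJ females on the same diet, so it was at least 102-fold higher in the latter, taking 3 counts over the group (0.00838 CPM) as the limit. With a CAST/EiJ library left out the bound was 72.9-fold to 79.6-fold. Without NZO/HlLtJ replicate 1, 92 counts were left and the bound was 50.1-fold. Cxcl9 had 2 counts against 2359, a ratio of 1370 with a 95% Poisson interval of 380 to 11300, and without that replicate the ratio was 483 (134 to 3990). These intervals cover counting error only. Replicates 1, 2 and 4 of the CAST/EiJ females are among the 5 libraries with transcripts of another strain.

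Males were compared with females on 10% fat, averaging the 3 strains. None of the 10 genes was called by edgeR, DESeq2 or limma, against 0.911% of all genes in edgeR. Tnf (1.36 higher in males, SE 0.50, adjusted p = 0.228) and Il1r1 (0.34 higher in males, SE 0.14, adjusted p = 0.3) had an unadjusted p under 0.05.

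The receptors and the other ligands of the same pathways also differed with diet in NZO/HlLtJ. Of 19 chemokine receptors tested, 12 were higher on 44% fat and 0 lower, with a median log2 fold change of 1.69. Cxcr3, the receptor of Cxcl9 and Cxcl10, rose from 0.176 ± 0.128 to 1.09 ± 0.927 CPM (SD, n = 7), a log2 fold change of 2.54. Ccr2, the receptor of Ccl2, rose from 3.71 ± 2.65 to 14.9 ± 12 CPM (SD, n = 7). Cxcr6, the receptor of Cxcl16, rose by 1.80 on the log2 scale (SE 0.50, adjusted p = 0.00464). Cxcr2, the receptor of Cxcl1, was not called (0.20, SE 1.45). It was near the limit of detection, with a median of 0.0109 CPM and no count in 20 of the 45 libraries, so a change could hardly be seen.

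Of 22 other chemokine ligands tested, 12 were higher and 1, the platelet chemokine Ppbp, was lower (log2 fold change -2.29, adjusted p = 0.0305), with a median of 1.03. Xcl1, a chemokine of NK and T cells, rose by 3.02 and Ccl12, a monocyte chemokine, by 2.88 on the log2 scale. Of 22 genes of the interleukin 1 family and its signalling, 14 were higher and 1, the adaptor Traf6, was lower (log2 fold change -0.36, adjusted p = 0.000265), with a median of 0.58. Il1rn, which encodes the antagonist of the interleukin 1 receptor, rose from 1.05 ± 1.43 to 5.38 ± 3.57 CPM (SD, n = 7), a log2 fold change of 2.56 (SE 0.38, adjusted p = 2.85e-06), while Il1b itself was not called. Of 22 genes of the TNF family and its signalling, 14 were higher and 0 lower, with a median of 0.45; among them the TNF receptor Tnfrsf1b rose from 5.06 ± 2.86 to 14.4 ± 10.6 CPM (SD, n = 7). Of 32 other cytokines and receptors, 22 were higher and 0 lower, with a median of 0.91. These counts stand beside 18.5% higher and 17.3% lower over all genes.

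**Figure D5:**
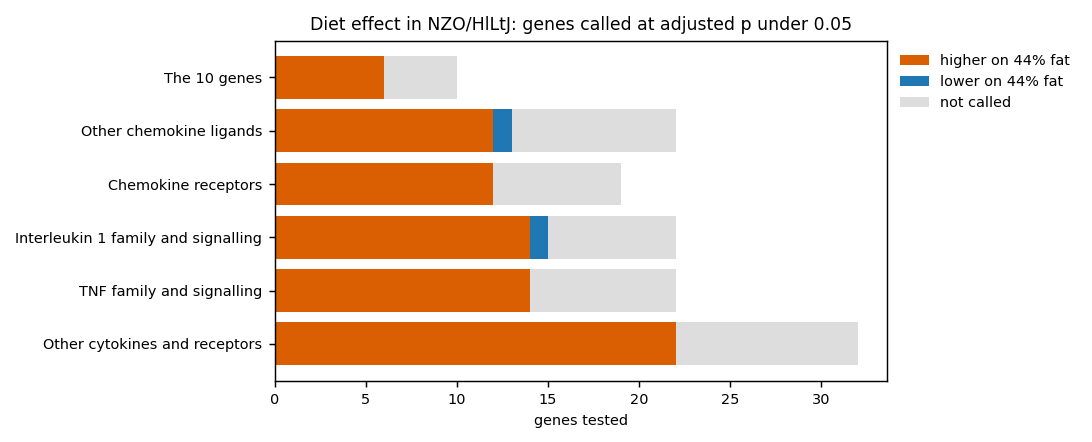
Number of genes called higher (orange), called lower (blue) or not called (grey) for the diet effect in NZO/HlLtJ among the 10 genes and 5 related lists, in edgeR at an adjusted p under 0.05. The 10 genes hold 6 called higher, and the chemokine receptors hold 12 of 19.

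The genes whose log CPM was most like that of each member were ranked by Pearson correlation over the 45 libraries, which share strain, sex, diet and library composition, so the values are a description. Cxcl16 was most like C1qc (r = 0.952), C1qb and Tyrobp, 3 genes of macrophages. Cxcl9 was most like Ncr1 (r = 0.931), an NK cell receptor, B2m and the interferon-induced gene Ifi47, and Cxcl10 like Rtp4 (r = 0.929) and Gbp2, which are interferon-induced. Ccl8 was most like Aoah (r = 0.931), Ccl5 like Ncr1 (r = 0.880) and Klrc1, an NK cell receptor, and Ccl2 like the myeloid kinase Fgr (r = 0.894). Cxcl1 was most like Kcne4 (r = 0.864) and the related chemokine Cxcl2 (r = 0.819), Tnf like the cytokine Osm (r = 0.815), and Il1b like the chemokine Ccl4 (r = 0.790). Il1r1 was most like Gosr2 (r = 0.794), a gene of vesicle transport. Among the 10 genes, Ccl8 and Cxcl9 (r = 0.901) and Cxcl9 and Cxcl10 (r = 0.862) were alike, Ccl5 and Cxcl1 were not (r = 0.0985), and Il1r1 had values of -0.325 to 0.11 with the other 9. Over the 14 NZO/HlLtJ libraries alone, r was 0.512 for Ccl5 and Cxcl1, and -0.742 to -0.29 for Il1r1 with the other 9.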

How the data were processed

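Islet RNA from 45 libraries was analysed. Per the labels' protocols, polyadenylated RNA was made into libraries with the KAPA mRNA HyperPrep kit and an ERCC spike-in (not analysed here) and sequenced paired-end on a NovaSeq. The authors deposited estimated counts per gene, not normalised, of which 23.6% are not whole, and variance-stabilised values on a log2 scale. Per the submitters' processing notes the build is GRCm38, and DESeq2 is named without its role. The sources used here give no aligner, counting program or strand use.

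Counts were rounded to whole numbers and tested in R 4.3.3 with edgeR 4.0.16 (quasi-likelihood F test, robust, bias-adjusted deviances, TMM, default expression filter over the 12 groups, 20306 of 22904 genes) in a single model of all 45 libraries, with 15 comparisons and Benjamini-Hochberg adjustment within each. The standard error (SE) is the log2 fold change over the root of F. Bias-adjusted deviances were chosen to match the processing of the whole series after results for the 10 genes under the other setting were known. Alternatives used limma 3.58.1, DESeq2 1.42.0, other normalisation, filters, libraries and a factor for the number series. The fit was tested on simulated data. All 10 genes are named, and genes of the related lists come from the 4 with the smallest p in each; Ppbp, Traf6, Cxcr6 and Cxcr2 were added after their values were seen. The genes most alike were the 3 with the highest correlation. Members, lists and rules were chosen with earlier results of these data known.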

Additional observations from a re-analysis of the deposited data

Results flagged for a closer look

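Of 90 groups of 4 libraries (10 genes in 9 groups), 17 held a library whose gap to the others exceeded Dixon's 95% critical value. Chance gives about 1 in 20 for independent values with a normal distribution. The test was run on CPM, which is skewed near 0, and the genes share libraries. The 17 therefore cannot be set against that rate and only mark libraries to look at. C57BL/6J males on 44% fat held the most. There replicate 1 stood apart for 5 genes: high for Ccl8 (0.292 CPM, others 0.0110 to 0.0316), Cxcl1 (1.12, others 0.0947 to 0.253), Cxcl16 (8.44, others 5.73 to 6.00) and Tnf (1.20, others 0.137 to 0.213), and low for Ccl5 (0.131, others 0.406 to 0.462). In the same group replicate 3 was high for Cxcl9 (1.65 CPM, others 0.0769 to 0.248).

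Other C57BL/6J libraries were replicate 1 of the females on 44% fat, high for Il1b (2.90 CPM, others 1.01 to 1.27) and Tnf (0.931, others 0.0852 to 0.118), and replicate 1 of the males on 10% fat, high for Tnf (0.734, others 0.154 to 0.212). Replicate 4 of those males was low for Cxcl9 (0.0188, others 0.0466 to 0.0514). Ccl8 was detected in a single library of its group, at a level of few counts, in C57BL/6J females on 44% fat (replicate 3, 0.0423 CPM), C57BL/6J males on 10% fat (replicate 2, 0.0289) and CAST/EiJ females on 10% fat (replicate 2, 0.0254).

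In CAST/EiJ, replicate 2 of the females on 10% fat was also high for Cxcl9 (0.267 CPM, others 0 to 0.0437), replicate 3 of that group was low for Il1r1 (307, others 409 to 422), and replicate 1 of the males on 44% fat was high for Il1b (0.934, others 0.401 to 0.491). In NZO/HlLtJ, replicate 3 of the females on 10% fat was low for Il1r1 (582, others 762 to 765).

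The diet effect differed between strains by the test of the interaction for Cxcl16 against C57BL/6J (1.41 on the log2 scale) and against CAST/EiJ for Ccl2 (2.93), Cxcl9 (5.75), Cxcl10 (2.51) and Cxcl16 (1.41).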

How the results depend on the processing

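Leaving out each library in turn gave, for the number of the 10 genes called, 6 to 7 for diet in NZO/HlLtJ, 4 to 7 in its females, 2 to 5 in its males, and 0 to 1 for diet by sex. It gave 0 to 0 for diet in C57BL/6J, in CAST/EiJ and for sex, 1 to 2 and 3 to 5 for the diet-by-strain tests against C57BL/6J and CAST/EiJ, 5 to 7, 2 to 4 and 5 to 7 for the strain differences on 10% fat (NZO/HlLtJ against C57BL/6J, CAST/EiJ against C57BL/6J, NZO/HlLtJ against CAST/EiJ), and 7 to 9, 2 to 5 and 8 to 9 for those on 44% fat. Over the other settings 139 of 149 such counts stayed within 1.5 times the reported one. The exceptions were 3 against 6 in NZO/HlLtJ females with that strain alone, 2 (without the 5 libraries with transcripts of another strain) and 3 (DESeq2) against 5 in its males, 1 (number series as a factor) and 2 (limma) against 0 for diet by sex, 6 (limma) against 1 and 2 (without the 5 libraries) against 4 for the diet-by-strain tests, and 2 (library totals), 1 (without the 5 libraries) and 1 (limma) against 4 for CAST/EiJ against C57BL/6J on 44% fat. The cause was not tested.

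Of 710 fold changes under other settings 667 kept their direction and side of the threshold, 37 lost and 4 gained a call, and 2 reversed; over the 964 that left out a library these numbers were 898, 54, 4 and 8. No reversal was of a call. With a library left out, Cxcl1 ranged from -0.15 to 0.79 in NZO/HlLtJ and from -0.63 to 0.19 in its males, Il1r1 in its females from -0.088 to 0.15, and Tnf in its males from -0.27 to 1.38. The other 2 were Il1r1 in the females with library totals (-0.14) and Tnf in the males without the 5 libraries (-0.060). Without bias-adjusted deviances, a setting added after the data were seen, Tnf in NZO/HlLtJ females (adjusted p = 0.0613) and Ccl2 in its males (adjusted p = 0.12) were not called. The folds of Ccl8 and Cxcl9 against CAST/EiJ females with a library left out were also added after the data were seen. limma ran on deposited log2 values whose scale compresses low levels.

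Scaling to library totals alone moved the median of all genes in NZO/HlLtJ from -0.02 to -0.15 and changed counts over all genes: 1489 against 3492 called in its females (40.7% against 54.5% of them higher), 3308 against 6518 in its males (70.8% against 52.9%), 260 against 2030 for diet by sex (79.2% against 44.2%), 1544 against 3814 and 2627 against 5209 for diet by strain (39.2% against 51.5% and 35.9% against 50.6%), 5763 against 8902 for NZO/HlLtJ against C57BL/6J on 10% fat, and 54 against 185 for sex (74.1% against 28.6%). On 44% fat, 36.6% against 47.7% of the calls of NZO/HlLtJ against C57BL/6J were higher, and with RLE factors 55.4% against 44.2% of those for diet by sex. Without the 5 libraries 2733 were called in males, 213 for diet by sex, and 1831 and 2898 for diet by strain; with NZO/HlLtJ alone 1360 in females and 131 for diet by sex; and DESeq2 called 376 for sex. No paired analysis was possible because the labels give no replicate numbers and the numbers used here follow accession order. Depth limits Ccl8 and Cxcl9 outside NZO/HlLtJ, where most values rest on few counts.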

Other observations

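Replicate 3 of the CAST/EiJ males on 10% fat, a group of 3 libraries, held several of the highest levels of that strain: 1.00 CPM for Ccl2 (others 0.170 and 0.181), 0.434 CPM for Ccl8 (others 0) and 0.719 CPM for Cxcl9. The same library had summed markers of 343 CPM for macrophages, 22.6 CPM for T and NK cells and 140.1 CPM for B and plasma cells, against at most 105 CPM, 1.24 CPM and 6.21 CPM in the other 2. In CAST/EiJ males on 44% fat, replicate 1 had 23.9 CPM of T and NK cell markers, and in C57BL/6J males on 44% fat, replicate 2 had 17.2 CPM. Cxcl9 in these 2 libraries was at 0.272 and 0.0769 CPM.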
